A study of Arabidopsis thaliana with 7 samples.

Results

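The cytosolic ribosome of Arabidopsis thaliana is built from a small 40S and a large 60S subunit, and its proteins are encoded in the nucleus by families of near-identical gene copies. The 46 genes described here encode proteins of both subunits, including the stalk proteins P0 and P1, and were taken from a list of gene identifiers out of 32548 genes counted. They comprise 15 genes for 40S proteins, 25 for proteins of the body of the 60S subunit and 6 for P0 and P1, in 24 protein families. Another 172 genes for cytosolic ribosomal proteins were counted and serve below as a comparison.

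RNA was sequenced from whole seedlings of Col-0 wild type (WT) and of the hon45 mutant, 2 libraries each, 10 days after germination on agar under 16 h light and 8 h dark at 22 °C. The series carries HON4 and HON5 as the genes affected in hon45; both encode linker-histone-related proteins with AT-hook motifs that bind DNA. The labels name no alleles, and single mutants were not analysed here, so HON4 and HON5 cannot be told apart. The series also has 3 Myc chromatin immunoprecipitations, from WT and from plants with a HON5-Myc transgene, which were not analysed here.

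The 40S subunit reads the mRNA, and the 60S subunit forms peptide bonds and holds the stalk, where P0 anchors P1 and P2 and elongation factors are recruited. Ribosomal protein genes are strongly transcribed in dividing and growing cells, and in plants their transcription and translation respond to sugar and TOR kinase signalling. Mutants of single Arabidopsis copies often have narrow, pointed first leaves, which is how several of these genes were found.

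The libraries held 53858439 to 63543079 counts, and each of the 46 genes had between 596 and 34804 counts in every library. Transcripts of the mutated genes were lower in both hon45 libraries: HON5 went from 97.7 and 91.7 CPM (counts scaled to a common library size with TMM factors) in the WT libraries to 13.97 and 15.9, and HON4 from 99.3 and 104 to 39.2 and 41.0. Both fell (log2 fold changes of −2.66 and −1.34, adjusted p = 3.09e-12 and 5.42e-08, edgeR quasi-likelihood test, adjusted by Benjamini-Hochberg). HON4 overlaps another counted gene, as do 9 of the 46 (RPL27AB, RPS18C, RPS13B, RPP0A, RPP0B, RPL24A, PGY2, RPL3B and RPL9B), whose counts may hold reads of that neighbour. Nothing states that replicates came from separate cultures, so p-values measure only the spread between these libraries, which may be technical.

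No gene of the 46 passed the test in either direction. All 46 were among the 29226 genes tested, and 0 were called higher and 0 lower at an adjusted p under 0.05 in edgeR, where 2.48% of all tested genes were called higher and 1.63% lower. At an unadjusted p under 0.05, 8 of the 46 were lower and 0 higher, against 8.16% of all tested genes that were lower and 9.76% that were higher at that level. The number of the 46 at that level was 1 without WT replicate 1, 15 without WT replicate 2 and 0 without either hon45 library. DESeq2 also called 0, with 2 at an unadjusted p under 0.05. The median log2 fold change was −0.07, beside −0.04 over all tested genes. With a filter of at least 5 CPM in 2 libraries it was −0.11, beside −0.00028 over the 15787 genes tested there. Of the 46, 30 were below 0 and 16 above, against 55.3% of all tested genes below 0. The 45 genes described one by one ran from −0.26 to 0.17, with standard errors (SE) of 0.09 to 0.13 and 95% confidence intervals between −0.49 and 0.39. On the deposited FPKM values, 42 of the 46 had the same direction as on counts, and 0 were called. In whole seedlings, fewer cells of a type and less RNA per cell cannot be told apart.

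The small values leaned one way among the libraries. Both hon45 libraries were below both WT libraries for 24 of the 46 genes, against 26.2% of all tested genes, and above both for 6, against 23.1% of all tested genes; for the other 16 the libraries overlapped. WT replicate 1 was the library farthest from the rest: the median deviation of the 46 genes from their 4-library mean was 0.08 there on the log2 scale, against 0.01 in WT replicate 2, −0.04 in hon45 replicate 1 and −0.02 in hon45 replicate 2. Left out of the comparison in turn, the WT library nearer to hon45, replicate 2, changed the calls: without it 7 genes were lower, beside 5.38% of all tested genes that were called lower in that fit. Among them were RPS21C, RPP1A, RPL11B, RPS15AA, RPP1C and RPS18C, with log2 fold changes of −0.38 to −0.31 and adjusted p-values of 0.00331 to 0.0304 by edgeR. That fit leaves WT with replicate 1 alone, and assumes that it varies as the hon45 libraries do. When any other single library was left out, 0 of the 46 were called.

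**Figure D1:**
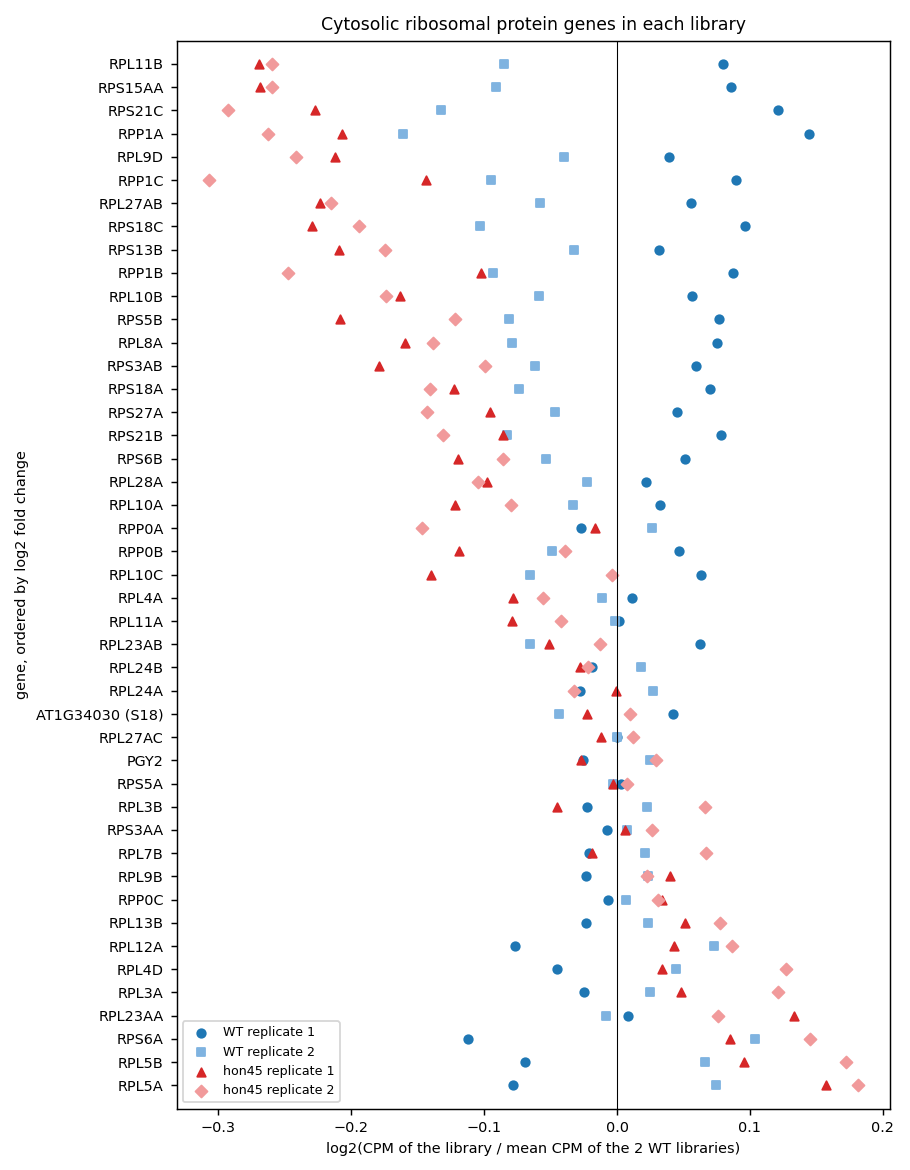
The level of 45 of the 46 genes in every library, as log2 of its CPM over the mean CPM of the 2 WT libraries; the genes are ordered by log2 fold change. At the top both hon45 libraries lie left of both WT libraries, with WT replicate 2 between WT replicate 1 and hon45, and from RPL23AB to RPL9B most genes have overlapping libraries.

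The summed level of the 46 genes was 8794 and 8507 CPM in WT and 8227 and 8399 CPM in hon45, from 0.822% to 0.884% of each library's counts. Every hon45 value was below every WT value, a difference of −3.90%, with an exact two-sided permutation p of 0.333, the smallest that 2 against 2 libraries allow. The 15 genes for 40S proteins summed to 2695 and 2506 CPM in WT and to 2354 and 2400 CPM in hon45, a difference of −8.59% with the same exact p of 0.333. The 25 genes for 60S body proteins summed to 5063 and 5072 CPM in WT and to 4977 and 5111 CPM in hon45, a difference of −0.465% with overlapping libraries (exact permutation p = 1). The 6 genes for P0 and P1 summed to 1036 and 928 CPM in WT and to 896 and 888 CPM in hon45, a difference of −9.23% with an exact permutation p of 0.333. The lower sums were in the 40S and stalk genes, but a difference between the subunits was not tested. Median transcript lengths implied by counts and FPKM were 530 bases for the 40S, 623 for the 60S body and 670 for the stalk genes. The stalk median falls between P1 genes of 376 to 412 bases and P0 genes of 927 to 1102 bases. The 60S median includes RPL9B and PGY2, whose implied lengths are longer than their loci. The part of length in these sums was not tested.

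Levels per length, which allow genes to be compared, came from the deposited FPKM values (fragments counted per kilobase and scaled by library). The median gene of the 46 had 280.8 FPKM in WT. The highest were RPL8A (614 ± 42.4 FPKM, SD, n = 2), a 60S protein next to the peptidyl transferase centre, and RPL10A (611 ± 14.9 FPKM), which joins the 60S subunit late in its assembly; these 2 did not differ beyond their spread. RPP1A followed with 574 ± 75.6 FPKM, the highest of the stalk genes, and its spread reached both. At the low end were RPP0A (10.7 ± 1.04 FPKM), RPL3B, RPL10B and RPL11A (21.5, 22.8 and 29.7 FPKM), each with a more abundant copy in its family. The places of RPL9B and PGY2 (83.7 and 75.9 FPKM) are uncertain, since their counts and FPKM disagree, as given below. Their mean CPM in WT were 381 and 418, beside 421 for RPL8A and 419 for RPL10A. The top of the order is therefore uncertain as well.

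**Figure D2:**
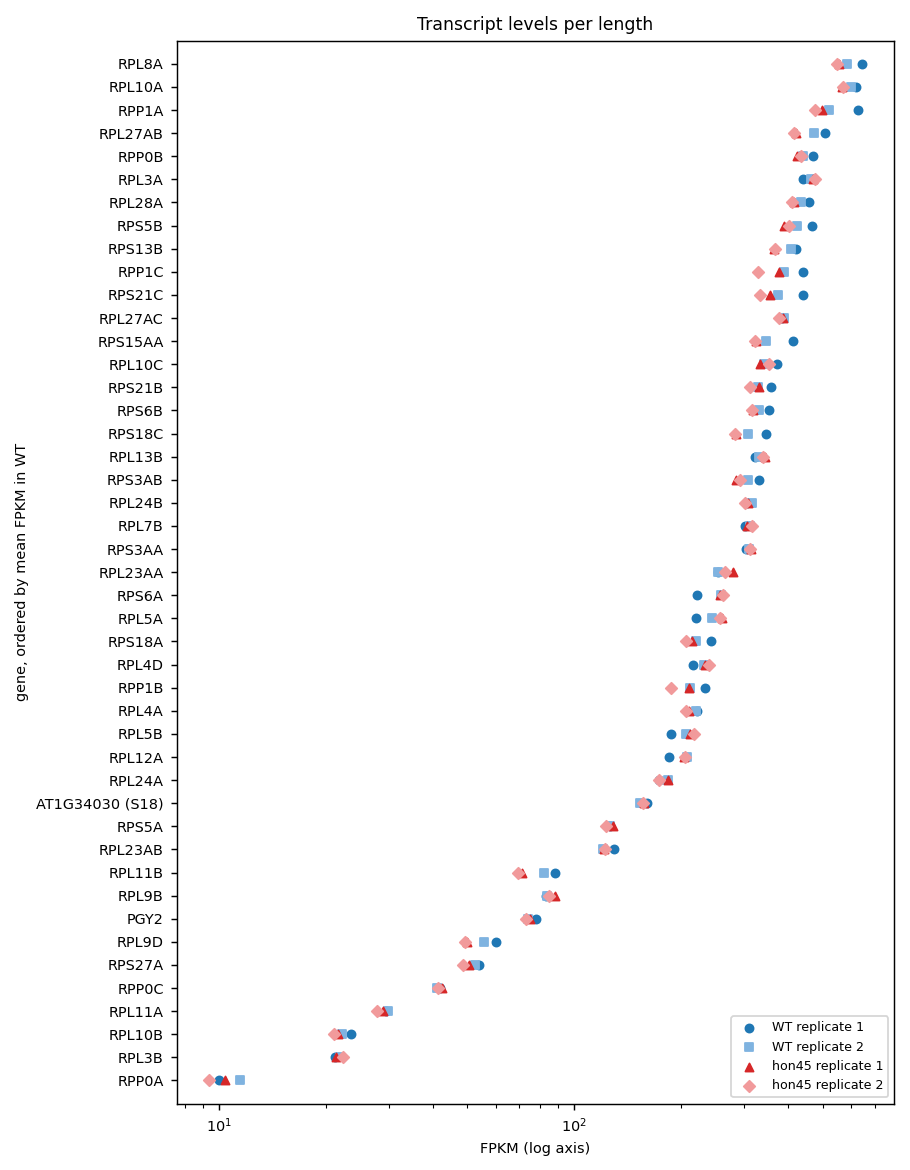
FPKM of 45 of the 46 genes in every library on a log axis, ordered by their mean in WT. The libraries of the 2 genotypes lie close together at every level, from RPP0A at 10.7 FPKM to RPL8A at 614 FPKM. RPL9B and PGY2 are placed uncertainly, since their counts and FPKM disagree.

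Among the 40S genes, 12 of 15 had a log2 fold change below 0, against 55.3% of all tested genes, and the median was −0.13. Both hon45 libraries were below both WT libraries for 11 of them and above for 0, against 26.2% and 23.1% of all tested genes.

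RPS15AA (AT1G07770, chromosome 1), which encodes S15a, was at 300 and 265 CPM in WT and at 235 and 236 CPM in hon45. Its log2 fold change was −0.26 (adjusted p = 0.192, edgeR). RPS21C (AT5G27700, chromosome 5) was at 158 and 132 CPM in WT and at 124 and 118 CPM in hon45, also −0.26 with an adjusted p of 0.192 by edgeR. In both genes hon45 was lower in each library, and WT replicate 2 lay between WT replicate 1 and hon45. RPS21B, the other S21 copy among the 46, had −0.11, and RPS27A, which encodes a zinc-finger protein, −0.12 at a level of 17.1 to 18.2 CPM in WT.

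S18 is encoded by 3 genes for the same protein. RPS18C (AT4G09800, listed in the files as RPS18A and in RefSeq as RPS18C) was at 187 and 163 CPM in WT and at 149 and 153 CPM in hon45 (log2 fold change −0.21). RPS18A (AT1G22780), known as POINTED FIRST LEAF 1 from its mutant, had −0.13. The remaining copy, AT1G34030, had −0.01, and its libraries overlapped. RPS13B (AT4G00100), known as POINTED FIRST LEAF 2, was at 205 and 196 CPM in WT and at 173 and 177 CPM in hon45, a value of −0.19. These copies were all lower or level in hon45, and none passed the test.

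S5 has 2 copies, AT3G11940 (RPS5B in the files, RPS5A in RefSeq), whose mutant is minute-like, and AT2G37270 (RPS5A in the files). RPS5B, the most abundant 40S gene of the 46 in FPKM, was at 323 and 290.0 CPM in WT and at 266 and 282 CPM in hon45 (log2 fold change −0.16). RPS5A was at 83.6 and 83.2 CPM in WT and at 83.2 and 83.8 CPM in hon45. The rarer copy had close to the same level in the 4 libraries, and the abundant copy was lower in both hon45 libraries.

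S3a also had a level copy and a lower one, but they were close in FPKM. RPS3AB was at 275 and 252.5 CPM in WT and at 233 and 246 CPM in hon45 (log2 fold change −0.14), and RPS3AA at 238 and 241 CPM in WT and at 240.4 and 244 CPM in hon45 (0.02). The 2 genotypes separated in RPS3AB and overlapped in RPS3AA.

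S6, a 40S protein that is phosphorylated downstream of TOR and its S6 kinase, had one copy on each side of 0. RPS6A was at 158 and 184 CPM in WT and at 182 and 189 CPM in hon45 (log2 fold change 0.12, adjusted p = 0.621, edgeR). RPS6B was at 287 and 267 CPM in WT and at 255 and 261 CPM in hon45 (−0.10, adjusted p = 0.67, edgeR). WT replicate 2 already had the RPS6A level of hon45, so only WT replicate 1 was low for that gene.

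Of the 25 genes for 60S body proteins, 13 were below 0, against 55.3% of all tested genes, and the median was −0.02. Both hon45 libraries were below both WT libraries for 10 and above for 5, against 26.2% and 23.1% of all tested genes. L5 and L11 bind the 5S rRNA and enter the subunit with it as one particle. The L5 copies had the highest values of the 46, and RPL11B was among the lowest. RPL5A (AT3G25520, chromosome 3, 9269293 to 9271400), known from leaf polarity screens, was at 206 and 229 CPM in WT and at 243 and 247 CPM in hon45. Its log2 fold change was 0.17, with an SE of 0.10 (adjusted p = 0.424, edgeR). RPL5B was at 178 and 195 CPM in WT and at 200 and 210 CPM in hon45, a value of 0.13 (adjusted p = 0.538, edgeR). In both L5 genes the WT replicate 2 value lay between WT replicate 1 and hon45.

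RPL11B (AT3G58700, chromosome 3) went the other way. It was at 47.5 and 42.3 CPM in WT and at 37.3 and 37.5 CPM in hon45 (log2 fold change −0.26), with an adjusted p of 0.157 by edgeR. RPL11A, at 14.2 and 14.2 CPM in WT, was at 13.5 and 13.8 CPM in hon45 (−0.06). Both L11 copies were lower in hon45 in each library, and further L11 genes lie outside the 46.

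L4, a core protein of the 60S subunit, had a copy on each side. RPL4A was at 271 and 266 CPM in WT and at 254 and 258 CPM in hon45 (−0.07), and RPL4D at 248 and 264 CPM in WT and at 262 and 280 CPM in hon45 (0.08). The genotypes separated in RPL4A and overlapped in RPL4D. RPL3A, which encodes L3 beside the peptidyl transferase centre, had 528 and 547 CPM in WT and 556 and 584 CPM in hon45 (0.08), with both hon45 libraries above both WT libraries. Its rare copy RPL3B had a value of 0.01.

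L23a sits at the exit of the peptide tunnel. RPL23AA was at 143 and 142 CPM in WT and at 156 and 150 CPM in hon45 (0.11). RPL23AB was at 66.8 and 61.1 CPM in WT and at 61.7 and 63.4 CPM in hon45 (−0.03). One copy separated the genotypes and the other did not.

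For L27a, RPL27AB was at 191 and 176 CPM in WT and at 157 and 158 CPM in hon45 (−0.22, adjusted p = 0.253, edgeR). RPL27AC was at 196 in both WT libraries and at 195 and 198 CPM in hon45 (0.00). L9 has 3 genes among the 46: RPL9D was at 38.7 and 36.7 CPM in WT and at 32.5 and 31.9 CPM in hon45 (−0.23, adjusted p = 0.228, edgeR). RPL9B (0.03) and PGY2 (AT1G33140, PIGGYBACK 2, named for its mutant; 0.00) are neighbours on chromosome 1, and overlapped between genotypes. Their counts and FPKM disagree: together they imply transcripts of 4513 and 5605 bases, longer than the loci of 1624 and 1509 bases. Their values are therefore uncertain. They were left out of the correlation with length and of the split by length. The fits with a length trend removed still used these implied lengths.

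The remaining 60S genes had small values. RPL10A had −0.10 and RPL10B −0.17, both with each hon45 library below WT, and RPL10C had −0.07 with overlapping libraries. RPL8A, with the highest deposited FPKM but not the highest CPM, was at 443 and 399 CPM in WT. In hon45 it was at 377 and 382 CPM (−0.15), with every hon45 value below WT. RPL28A had −0.10, again with the libraries apart. RPL24A and RPL24B, of which RPL24B (SHORT VALVE1) acts in reinitiation after upstream reading frames, each had −0.02. RPL7B had 0.02, RPL13B 0.06 and RPL12A, whose protein binds the stalk base beside P0, 0.06; of these, RPL13B had both hon45 libraries above WT.

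**Figure D3:**
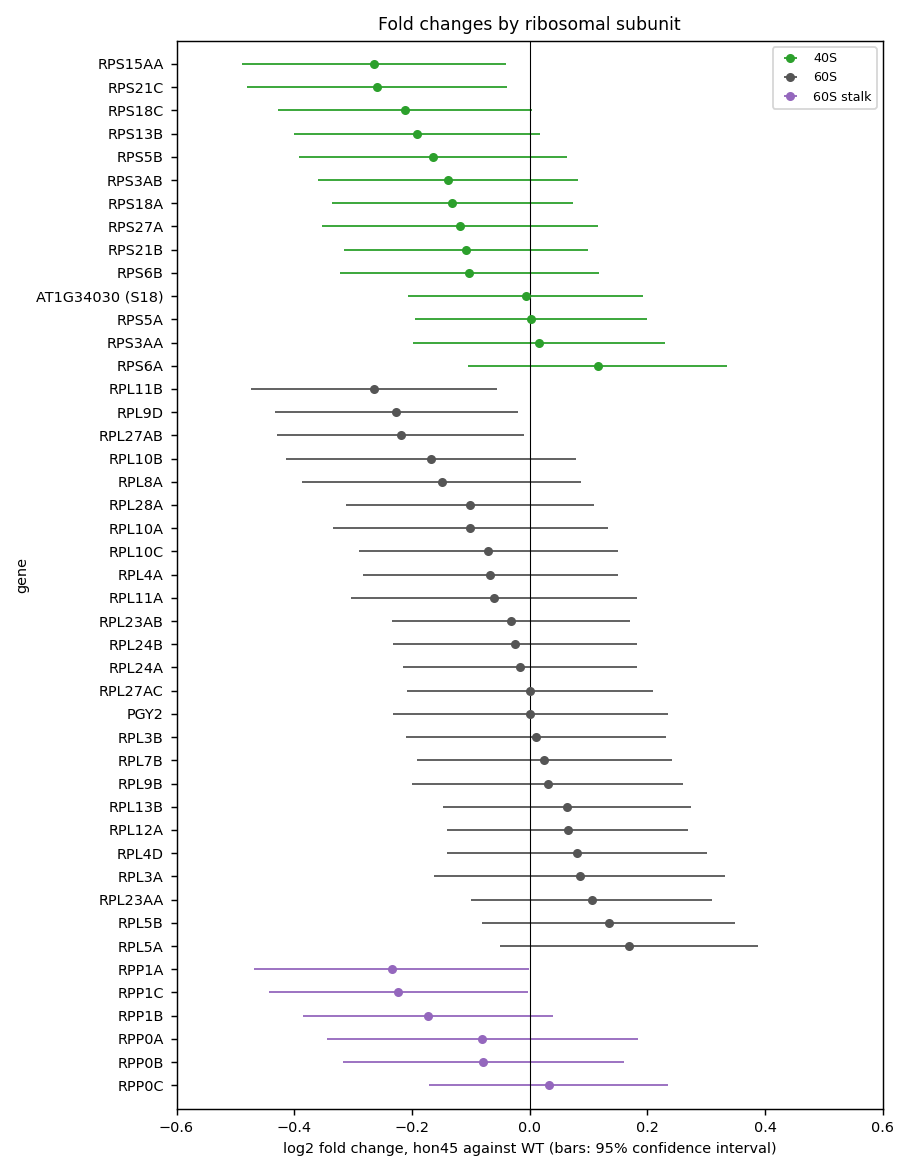
Log2 fold change of hon45 against WT with its 95% confidence interval for 45 of the 46 genes, by subunit. The 40S genes lie mostly left of 0, the 60S genes spread to both sides around −0.02, and the intervals of 38 of the 45 genes include 0 (before any adjustment for the number of genes tested).

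P1 is the acidic protein that P0 holds, with P2, on the ribosome. RPP1A (AT1G01100, chromosome 1) was at 239 and 193 CPM in WT and at 187 and 180.0 CPM in hon45. Its log2 fold change was −0.23 (adjusted p = 0.277, edgeR). RPP1C (AT5G47700, chromosome 5) was at 181 and 160 CPM in WT and at 154 and 138 CPM in hon45, a value of −0.22 (adjusted p = 0.272, edgeR), and RPP1B had −0.17. All 3 P1 genes were lower in every hon45 library, and WT replicate 2 of RPP1A was nearer to hon45 than to WT replicate 1.

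The P0 genes had values closer to 0, though a difference between P0 and P1 was not tested. RPP0B, by far the most abundant, was at 476 and 445 CPM in WT and at 424 and 448 CPM in hon45 (−0.08), RPP0A at 11.3 and 11.7 CPM in WT and at 11.4 and 10.4 CPM in hon45 (−0.08), and RPP0C at 38.0 and 38.3 CPM in WT and at 39.0 and 39.0 CPM in hon45 (0.03). Of the P0 genes RPP0C alone separated the genotypes, by a narrow margin. Implied transcript lengths were 376 to 412 bases for the P1 genes and 927 to 1102 for the P0 genes. With a length trend of each library taken off, fitted on genes from 5 CPM, P1 ran from −0.10 to −0.05 and P0 from −0.09 to 0.05. The part of length was not tested. Over the 6 stalk genes, 5 were below 0, against 55.3% of all tested genes, and the median was −0.13. Both hon45 libraries were below both WT libraries for 3 and above for 1, against 26.2% and 23.1% of all tested genes.

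The share of each copy in its family moved by at most 3.97 percentage points between genotypes. In 12 of the 17 families with several copies among the 46, no copy's share overlapped between the genotypes. In families of 2 copies the shares mirror each other. L9 is among the 12, and its shares rest on the uncertain FPKM of RPL9B and PGY2. No such count was made for other gene families, so nothing is read from the 12. Shares were taken of the summed FPKM of a family's members among the 46, so copies outside the 46 are not in them, and reads from near-identical copies may be split between them in ways the sources used here do not describe. RPL3A gave 95.5% of the L3 transcripts in WT and 95.6% in hon45, RPP0B 89.7% and 89.2% of P0, and RPL10A 61.7% and 61.0% of L10. That largest shift was in S6: RPS6A gave 38.4% and 43.8% in the WT libraries and 44.8% and 45.4% in hon45. The WT libraries differed from each other there by more than hon45 differed from WT replicate 2. For L27a, RPL27AB went from 55.9% to 52.2%, and for L11, RPL11B from 74.1% to 71.2%. These shares were not tested; the exact permutation test cannot go below 0.333 with 2 against 2 libraries.

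Shorter transcripts tended to have the lower values. The length that counts and FPKM imply was within the gene's locus for 44 of the 46 genes, and across these the Spearman correlation between length and log2 fold change was 0.49 (Pearson 0.51 on log2 length), a description over genes that share the same 4 libraries. It was 0.31 over 20382 tested genes and 0.26 over 162 of the other cytosolic ribosomal protein genes, so a relation with length was not confined to the 46. The correlation with length was as high between replicates, at 0.51 for WT replicate 2 over replicate 1 and at 0.53 for hon45 replicate 2 over replicate 1, where all genes gave 0.18 and −0.03. The 22 genes shorter than the median of 618 bases had a median log2 fold change of −0.11 with 15 lower in both hon45 libraries, and the 22 longer ones −0.07 with 9. Of all tested genes, 26.2% were lower in both hon45 libraries. With a length trend of each library taken off, the median over the 46 genes was −0.02 or 0.02 by the genes used for the trend, beside −0.07 and −0.0046 over all genes, and 24 or 21 were below 0. These fits held RPL9B and PGY2 with their uncertain lengths. Without those genes, 11 of the 22 shorter and 11 of the 22 longer were below 0 with the trend fitted from 5 CPM. Fitted from 1 CPM, the counts were 10 and 11.

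**Figure D4:**
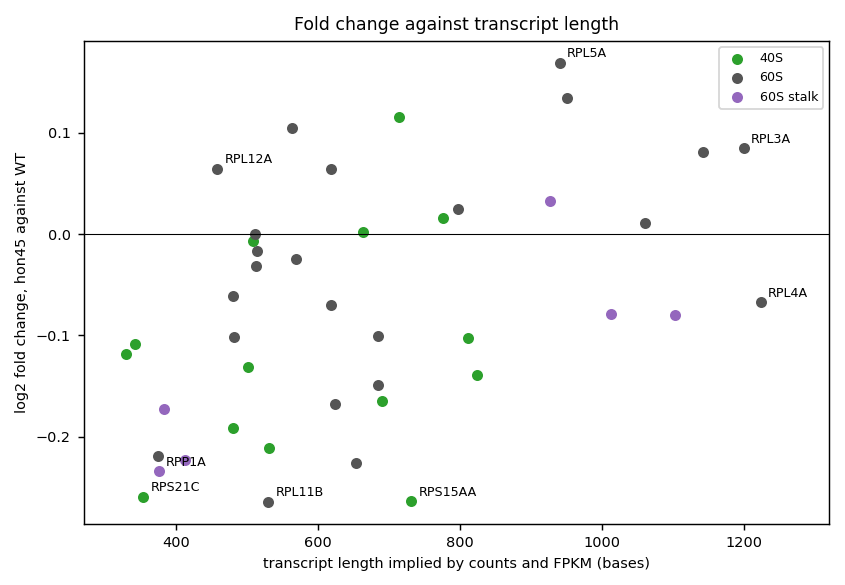
Log2 fold change of 43 genes against the transcript length implied by counts and FPKM, coloured by subunit. Longer genes tend to lie higher (Spearman 0.49 over 44 genes), from RPS21C at the lower left to RPL5A and RPL3A at the upper right, with RPL12A, RPS15AA and RPL4A away from that line.

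The other cytosolic ribosomal protein genes, 172 of them, gave a like picture: 0 were called higher and 1 lower, and the median was −0.08. Of the 172, 138 were below 0 and 34 above, against 55.3% of all tested genes below 0. For 87 each hon45 library was below each WT library and for 20 above, against 26.2% and 23.1% of all tested genes. The called gene was RPL37A (AT1G15250; log2 fold change −0.44, adjusted p = 0.0394, edgeR), at 19.4 and 16.9 CPM in WT and at 13.1 and 13.6 CPM in hon45; it overlaps another counted gene, and edgeR called it without WT replicate 2 but not without any other library (adjusted p of 0.180 to 0.313). Of 27 ribosome biogenesis factors 0 were called, with a median of 0.14 and 22 above 0. Of the 27, 18.5% were below 0, against 55.3% of all tested genes. Of 32 translation factors 1 was called, TIF3A1, an eIF3 subunit (0.50, adjusted p = 0.0110, edgeR), and the median was −0.01; with either hon45 library left out TIF3A1 was not called (adjusted p of 0.0784 and 0.225, edgeR). Of 14 genes of the TOR pathway and its regulators 0 were called.

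The genes for plastid ribosomal proteins, which build the ribosome of the chloroplast, went the other way. All 30 had both hon45 libraries above both WT libraries, against 23.1% of all tested genes. The median was 0.40, and 13 of 30 were called higher and 0 lower, where 2.48% of all tested genes were called higher. That count rested on the libraries and the settings used: edgeR called 1 without WT replicate 1, 28 without WT replicate 2 and 0 without either hon45 library, 4 with library totals in place of TMM, and 0 with a filter of at least 5 CPM in 2 libraries; the FPKM fit called 0. With all 4 libraries, RLE size factors gave 18 calls, no count filter 15, DESeq2 16, limma-voom 17 and a replicate block 18. With the length trend removed, fitted on genes from 5 or 1 CPM, 18 and 13 were called. Without overlapping genes, which dropped some of the 30, 11 were called, and with the other version of the quasi-likelihood fit 9. The median stayed above 0 with each library left out, at 0.22 to 0.62. Their summed level was 3216 and 4110 CPM in WT and 4699 and 4785 CPM in hon45. The summed cytosolic genes over the summed plastid genes gave 2.73 and 2.07 in WT and 1.75 and 1.76 in hon45 (exact permutation p = 0.333, the smallest possible), and WT replicate 1 stood farthest from the rest there too. The median implied length was 621 bases for the plastid genes and for the 46 alike. The part of length in the difference between these lists was not tested.

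**Figure D5:**
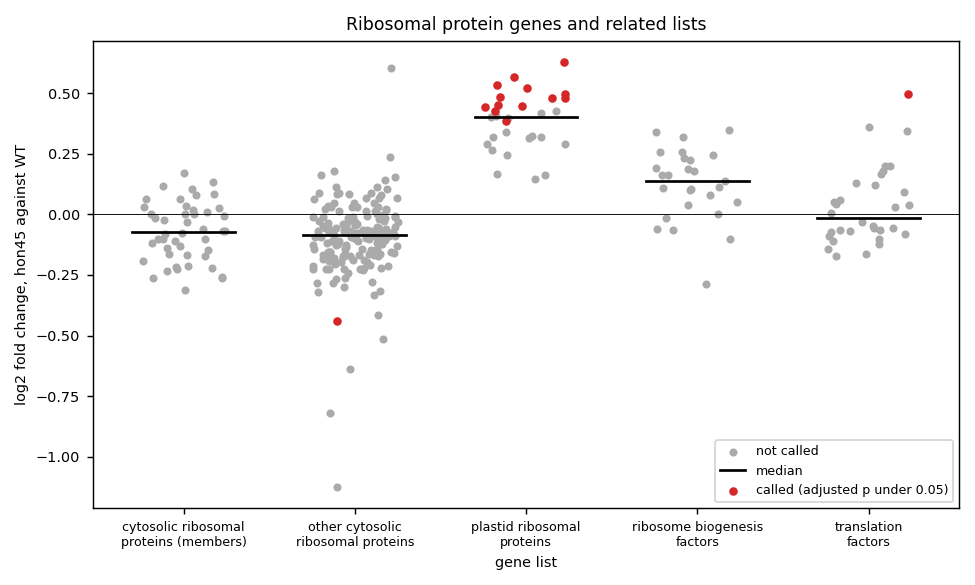
Log2 fold changes of the 46 cytosolic ribosomal protein genes and of 4 related lists, with genes called at an adjusted p under 0.05 in red and the median of each list as a bar. The 46 genes lie close to 0 with no called gene among them. The other cytosolic genes run from −1.13 to 0.61 with 1 called, and the plastid genes lie all above 0 with a median of 0.40.

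Markers of other cells moved beside these values. Of 7 root markers, edgeR called 5 lower at an adjusted p under 0.05, where 1.63% of all tested genes were called lower. Among them were EXPA18 (−0.61), TIP2-3 (−0.57) and PRP3 (−0.52), with adjusted p-values of 0.0039 to 0.0091 by edgeR. Fewer were called without either hon45 library, where the median of the 7 was −0.37 (replicate 1 left out) and −0.55 (replicate 2 left out). Without WT replicate 1 or 2 that median was −0.40 or −0.54. The abundant BGLU23 was not called (0.25). The summed level of the 7 was 3406 and 3792 CPM in WT and 4060 and 4157 CPM in hon45. Of 10 markers of proliferating cells 0 were called, with a summed level of 81.5 and 84.7 CPM in WT and 93.2 and 88.7 CPM in hon45. Of 10 photosynthetic markers 0 were called, at 38348 and 44296 CPM in WT and 43730 and 45652 CPM in hon45, and of 4 shoot meristem markers 0, at 10.99 and 10.2 CPM in WT and 12.4 and 10.3 CPM in hon45. Markers of root and of green tissue were present, as the whole-seedling label says, and no marker was at 0 in any library. The part of cell composition in the ribosomal protein values was not tested.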

How the data were processed

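Raw counts per gene were deposited by the authors in one table, not normalized, and FPKM values were deposited per library, per the file headers. HISAT2, edgeR, Bowtie2, deepTools and the TAIR10 build are named in the submitters' processing notes, without roles or versions. No source used here names the counting program or how it treated shared reads. The counts were tested in R 4.3.3 with edgeR 4.0.16 (filterByExpr, TMM, glmQLFit and glmQLFTest, group as the only term) with Benjamini-Hochberg adjustment over 29226 genes. Which of the 2 versions of the quasi-likelihood fit was used was settled after it was seen to repeat an earlier processing of these counts; both gave the same 0 calls among the 46 genes. FPKM were tested with limma 3.58.1 on log2(FPKM + 1), which understates changes of low genes. Lengths came from counts over FPKM. Alternatives included DESeq2 1.42.0, other scalings and filters, a length trend removed, and each library left out. Only the main edgeR fit was tested on simulated counts, drawn with the spread that edgeR estimated from these libraries. The alternatives were not tested in that way. Members and gene lists were chosen with earlier results of these data known. Names came from the files and from RefSeq (TAIR10.1); coordinates are those of the files, on TAIR10. Counts and sums cover all 46 genes; 1 of them is not reported here by name. The other 45 are described, with values in every library for the highest in each group, the largest changes and copies of unlike sign. Planned promoter motif counts were not made, since no promoter sequence was used here.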

Additional observations from a re-analysis of the deposited data

How the results depend on the processing

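No member was called under any alternative that kept all 4 libraries; with 1 library left out, 0 to 7 were called lower. The median log2 fold change, −0.07, was −0.11 with at least 5 CPM in 2 libraries, where the median over all genes tested was −0.00028. It was −0.017 and 0.024 with the length trend removed, fitted on genes from 5 or 1 CPM, and −0.11 to −0.013 with 1 library left out. The summed level, −0.06 as a log2 ratio, was −0.090 on FPKM and −0.081 to −0.033 with 1 library left out. The cause was not tested.

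With the replicate block, 0 members were called and 6 had an unadjusted p under 0.05. Over all genes that block gave 1121 higher and 648 lower, against 724 and 475 without it. Replicates 1 of both genotypes did not deviate together (correlation 0.0256 over 29226 genes), and 2 shared numbers do not pair the libraries.

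Of 46 members, 28 kept their sign in every alternative tried. The other 18 lay within 0.119 of 0. Their values with the other sign follow. With the length trend removed, fitted on genes from 5 CPM, these were RPS27A 0.016, RPS21B 0.026, RPL10C 0.0030, RPL11A 0.039, RPL23AB 0.064, RPL24B 0.057, RPL24A 0.076, AT1G34030 0.089, PGY2 −0.22, RPL9B −0.18. PGY2 and RPL9B entered that fit with implied lengths longer than their loci, so their values there are uncertain. With it fitted from 1 CPM, these were RPS27A 0.042, RPS21B 0.051, RPL28A 0.023, RPL10C 0.025, RPL11A 0.062, RPL23AB 0.087, RPL24B 0.078, RPL24A 0.098, AT1G34030 0.11. With RLE size factors, these were RPL24A 0.0054, AT1G34030 0.017. With library totals, these were RPL27AC −0.011, PGY2 −0.0097, RPS5A −0.0085, RPL3B −0.00012. Without the count filter, these were RPL24A 0.0049, AT1G34030 0.016. With at least 5 CPM in 2 libraries, these were RPL27AC −0.035, PGY2 −0.034, RPS5A −0.033, RPL3B −0.025, RPS3AA −0.019, RPL7B −0.011, RPL9B −0.0037, RPP0C −0.0026. In DESeq2, these were RPL24B 0.0050, RPL24A 0.013, AT1G34030 0.024. On log2(FPKM + 1), with a pseudocount of 0.1 and without a filter alike, these were AT1G34030 0.0037, RPL27AC −0.015, PGY2 −0.031, RPS5A −0.0080. With 1 library left out, the ranges were RPL10C −0.14 to 0.032, RPL23AB −0.093 to 0.034, RPL24B −0.042 to 0.014, RPL24A −0.043 to 0.013, AT1G34030 −0.047 to 0.045, RPL27AC −0.010 to 0.048, PGY2 −0.026 to 0.065, RPS5A −0.0015 to 0.043, RPL3B −0.044 to 0.10, RPL7B −0.017 to 0.10, RPL12A −0.0065 to 0.14. The cause was not tested.

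With 2 libraries a genotype, the SE of about 0.10 limits what can be seen: intervals of the 45 genes described reached −0.49 and 0.39 on the log2 scale. Levels are relative to all counts, so a change of total RNA per seedling cannot be seen. Counting of reads shared by near-identical copies is not described. The fit without overlapping genes held 37 of the 46 members.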
